A study of Mus musculus with 54 samples.

Results

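Mammary glands of mice on lactation day 3 were compared with glands on lactation day 1, the first step after milk secretion has begun. The arrays were chosen by their titles, 3 for each day, so 6 of the 54 arrays of the series entered the comparison. The series follows the mouse mammary gland through 18 time points from virgin weeks to involution. Each 1-channel Affymetrix array held the RNA of 1 4th inguinal gland of 1 mouse, with the lymph node taken out. All mice of both groups had been mated at 12 weeks and were nursing pups, which were left with the mothers for up to 7 days of lactation. No agent or allele is given for any group, the labels give no strain, and the number of arrays, 3 mice a day, limits the precision. Letters A, B and C name the mice of a day, and the labels do not say that a letter links mice of different days.

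Around birth, the fall of progesterone in the presence of prolactin turns the alveolar epithelium from a building tissue into a secreting one. Prolactin acts through the kinase Jak2 and the transcription factor Stat5, which drives the genes of caseins and whey proteins. Lactose is made in the Golgi, milk fat is budded from the cell surface inside a membrane, and the fat cells that fill the resting gland become small.

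Few transcripts were called different between the first and the third day of lactation. Of 7311 features, which are genes or probe sets without a single gene, 2 were called by limma at a Benjamini-Hochberg adjusted p under 0.05 (0.0274%). Both were lower on day 3, and 0 were higher. At an unadjusted p under 0.05 there were 333 features (4.55%), 161 higher (2.2%) and 172 lower (2.35%). The 3 + 3 arrays did not overlap for 460 features (6.29%), 236 higher (3.23%) and 224 lower (3.06%), and the log2 change was above 0 for 3639 (49.8%). Other settings called between 0 and 32 features, the latter over all 12422 non-control probe sets (0.258%), and without mouse A of day 3 there were 20, 17 of them lower. Without mouse B of day 1 there were 10, and without mouse B or mouse C of day 3 there were 4 each.

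The steps on either side were larger, although each shares 3 arrays with this one. Between pregnancy day 17.5 and lactation day 1, across birth, 1783 features were called (24.4%), 747 higher (10.2%) and 1036 lower (14.2%). Between lactation days 3 and 7, 213 were called (2.91%), 97 higher (1.33%) and 116 lower (1.59%), and between days 1 and 7 there were 396 (5.42%). The median size of the log2 change was 0.44 across birth, 0.16 from day 1 to day 3 and 0.26 from day 3 to day 7. In the same order 1079, 125 and 350 features had a log2 change beyond 1 in either direction. All of these contrasts came from 1 fit in which the median standard error was 0.29.

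**Figure D1:**
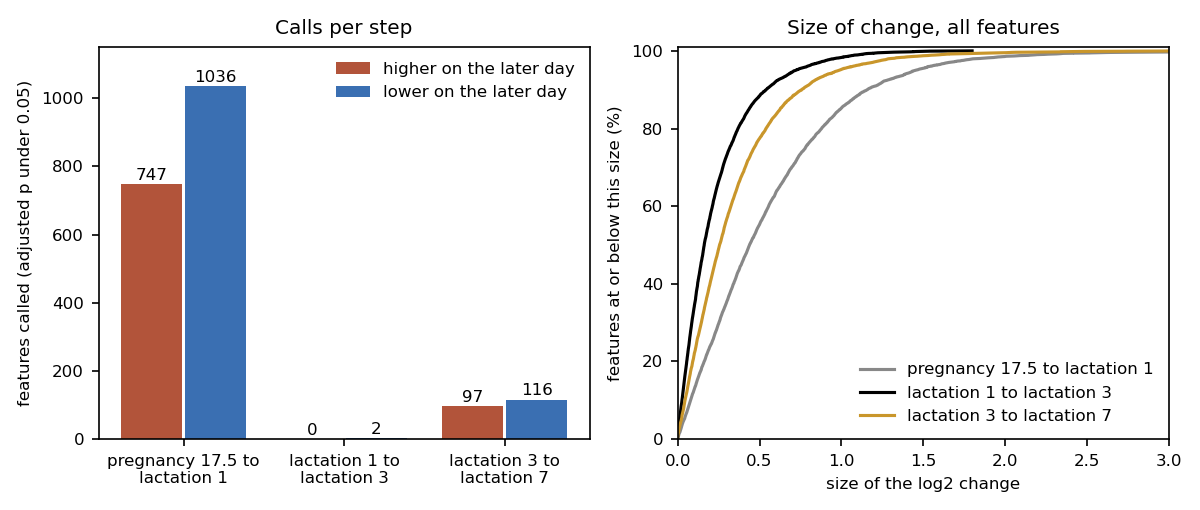
Left: bars give the number of features called higher (red) or lower (blue) on the later day of 3 successive steps, out of 7311. Right: for the same steps, the share of features (%) whose log2 change is no larger than the value on the x axis. The step from lactation day 1 to 3 has 0 and 2 calls, and its curve lies above the other curves because its changes are smaller.

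The small count has to be read against the interval of each value. The median 95% interval reached 0.59 on the log2 scale to either side, or 1.51-fold. For 5152 features (70.5%) the interval lay within a 2-fold change in both directions, and for the other 2159, the called ones among them, it reached beyond a 2-fold change in at least 1 direction. Of the 125 features with a log2 change beyond 1, 107 had a signal under 100 in all 6 arrays, and 4 had mean signals above 100 on both days. The array signals here are MAS5 intensities scaled to a common level per array, and the median log2 change over all features was 0.

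Changes of bright transcripts were small. Among 285 features with a mean signal above 1000 on both days, the median size of the change was 0.08 on the log2 scale, or 1.06-fold. Of these, 148 had higher and 137 lower means on day 3, and 4 had a log2 change beyond 0.5. One of the 4 was the called probe set described further on, and another was a probe set without a single gene. The 2 genes among them were Acly and Slc25a1. Acly is ATP citrate lyase, which supplies acetyl-CoA for fat synthesis, and its signals were 3259, 5182 and 5404 on day 1 and 3926, 5220.3 and 984 on day 3. Mouse C of day 3 alone was low, and the log2 change of -0.73 ± 0.48 (SE) had an adjusted p of 1.00. The citrate carrier Slc25a1, which brings the substrate of that enzyme out of the mitochondrion, gave 1567, 4652 and 2835 on day 1. On day 3 it gave 3515, 3678 and 5861, a log2 change of 0.62 ± 0.51 with overlapping arrays and an adjusted p of 1.00.

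**Figure D2:**
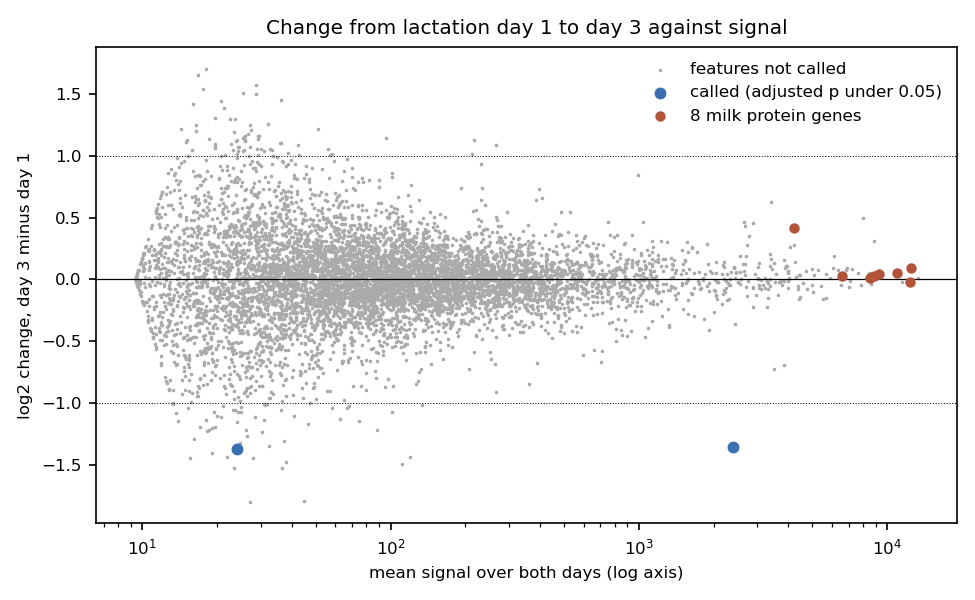
Each point is a feature, with the mean signal over both days on a log x axis and the log2 change of day 3 minus day 1 on the y axis. Blue points are the 2 called features, red points are 8 milk protein genes, and dotted lines mark log2 changes of -1 and 1. The spread narrows with signal, and the milk protein genes lie at the bright end near 0.

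The genes of milk proteins gave no call, and their signals on day 1 were among the brightest of the array. Beta-casein (Csn2), a major milk protein, gave signals of 6485, 6588 and 6491 on day 1 and 5757, 7109 and 7139.9 on day 3. The day 1 mice lay inside the range of the day 3 mice, with means of 6521 ± 57.6 and 6669 ± 789.7 (SD, n = 3 each). Its log2 change was 0.03 ± 0.67 (SE) with an adjusted p of 1.00. That error pools the spread of all 18 time points. From the 6 arrays alone, the 95% interval ran from -0.35 to 0.40, or from 0.78-fold to 1.32-fold.

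Whey acidic protein (Wap), a rodent whey protein, gave 12936, 12577 and 11979 on day 1 and 10547.5, 14280.1 and 12318 on day 3. The log2 change was -0.02 ± 0.78. Alpha-lactalbumin (Lalba), the subunit that makes galactosyltransferase produce lactose, gave 8004, 9055 and 8456 on day 1 and 7476, 9222 and 9087 on day 3. Again the day 1 mice lay between the lowest and the highest of day 3, and the log2 change was 0.01 ± 0.72. Lalba signals had been 1029, 600.5 and 1839 on pregnancy day 17.5, a called rise of 3.02 across birth (adjusted p = 0.0017).

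Over 7 such genes (Csn1s1, Csn1s2a, Csn2, Csn3, Wap, Lalba and Glycam1) the log2 change from day 1 to 3 ran from -0.02 to 0.09. The 6-array intervals together spanned 0.71-fold to 1.51-fold. Mouse A of day 3 had the lowest signal of the 6 mice for 7 of the 7 genes, and mouse B of day 3 the highest for 6. The day 3 mice thus differed among themselves more than the days did. With Csn1s2b added, 8 milk protein genes made up 3.68% ± 0.0445 of all signal on day 1 and 3.80% ± 0.410 on day 3 (SD, n = 3). The share was 2.18% ± 0.368 on pregnancy day 17.5 and 4.71% ± 0.0807 on day 7, where its 3 arrays lay above all 6 of days 1 and 3.

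Csn1s2b, the gene of a further casein, was the one with the most spread. It gave 1811, 5180.4 and 5162 on day 1 and 3305, 5539 and 6308 on day 3, with mouse A lowest on each day. The log2 change was 0.42 ± 0.44 (adjusted p = 1.00). Lactoferrin (Ltf), an iron-binding whey protein, gave 1988, 2797 and 2122 and then 1668, 2381 and 2474. Of 9 measured genes in the list of caseins and whey proteins 0 were called, 0 had an unadjusted p under 0.05, and the list median was 0.03.

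**Figure D3:**
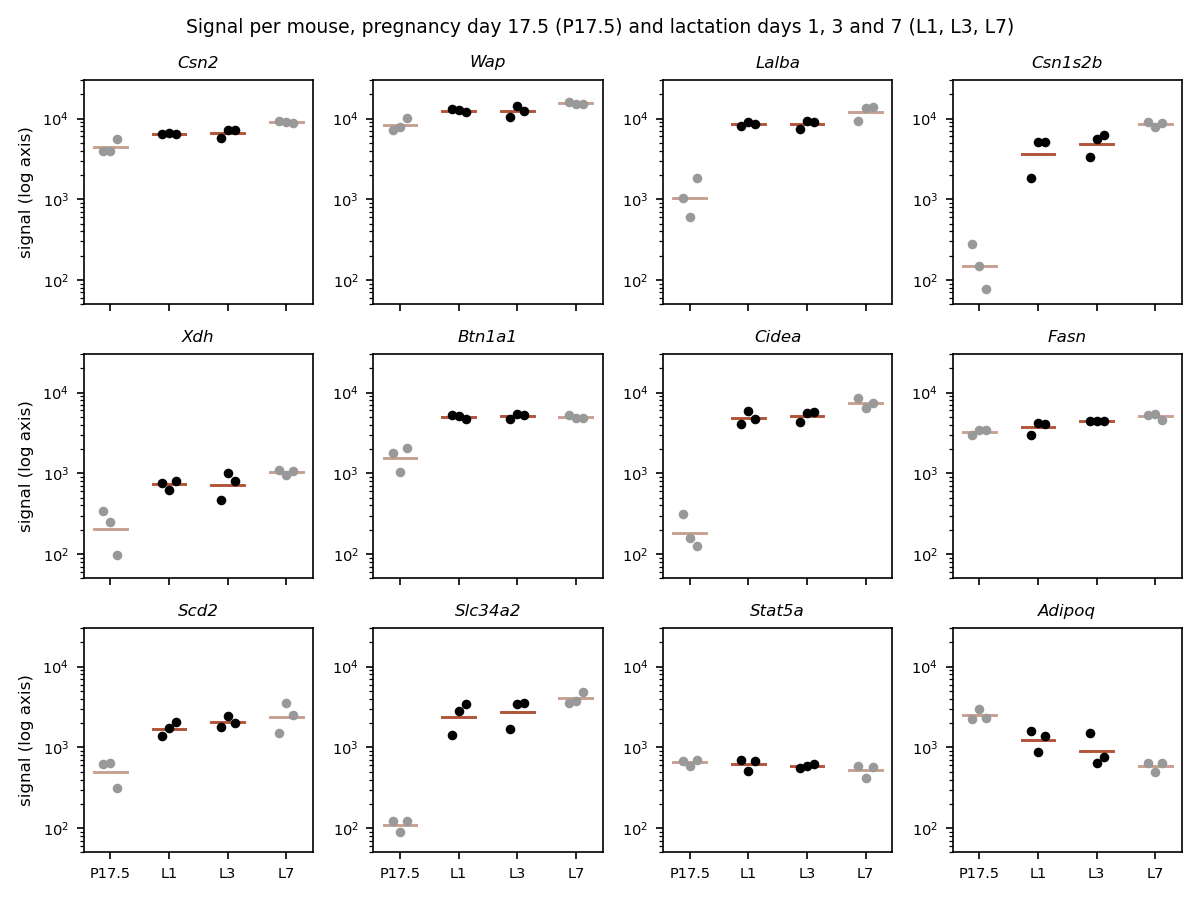
Signal of each mouse (points, log axis, the same scale in all panels) for 12 genes on pregnancy day 17.5 and lactation days 1, 3 and 7, with the mean of log2 as a bar. Black points are lactation days 1 and 3. For milk proteins, milk fat genes and the phosphate carrier Slc34a2 the black groups overlap, except for Fasn, and the largest gap lies before day 1 for Lalba, Csn1s2b, Xdh, Btn1a1, Cidea, Scd2 and Slc34a2.

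Genes of the milk fat globule gave no call either. Xdh, xanthine dehydrogenase, and butyrophilin (Btn1a1) are proteins of the membrane that encloses the secreted droplet. Xdh gave 763, 626 and 811 on day 1 and 461, 999.7 and 803 on day 3, a log2 change of -0.02 ± 0.39. Btn1a1 gave 5227, 5109 and 4729 and then 4701, 5503 and 5246, a log2 change of 0.03 ± 0.37. Both had been called higher across birth, by 1.85 and 1.68. The lipid droplet protein Cidea had gone from 310, 159 and 125 on pregnancy day 17.5 to 4044, 5962 and 4755 on day 1, and it gave 4281, 5618 and 5686 on day 3. None of these day 1 and day 3 groups separated. Of 9 measured members 0 were called, and the list median was 0.03.

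Fat synthesis was the milk list with the largest median, 0.20, with 13 of 17 measured members above 0 and 0 called. Fasn, fatty acid synthase, gave 3005, 4173 and 4057 on day 1 and 4458, 4389 and 4496 on day 3. The days did not overlap, and mouse A of day 1 stood below the rest. The log2 change was 0.26 ± 0.17 (unadjusted p = 0.13, adjusted p = 1.00). The elongase Elovl6 gave 401, 517 and 295 and then 492, 586 and 537, a change of 0.45 ± 0.39 with overlapping mice. The desaturase Scd1 gave 5473, 8479 and 10740.4 and then 9692, 8325 and 11698. The lowest of these 6 was again mouse A of day 1. Without it the list median was 0.04, and leaving out each of the other 5 mice gave 0.12 to 0.34. Srebf1, a regulator of lipid synthesis genes, had a change of -0.09 ± 0.29, and Thrsp, which promotes fat synthesis in this gland, one of 0.14 ± 0.22.

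In cholesterol synthesis 15 of 16 measured genes had a log2 change above 0, but the median was only 0.14, and 0 were called or had an unadjusted p under 0.05. The squalene epoxidase Sqle gave 324, 549 and 468 on day 1 and 354, 555 and 447 on day 3. Those mice overlapped fully, and the change was 0.03 ± 0.28. Fatty acid oxidation went the other way in sign, with 15 of 17 genes below 0, a median of -0.15 and 0 called. Across birth the same lists had 12 of 16 members called higher and 12 of 17 called lower. In the oxidation list 1 gene was called higher in that step. Of all features 10.2% were called higher and 14.2% lower across birth. Signs of members of a pathway are not independent of each other, since all were read from the same 6 glands.

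Genes of sugar supply gave no call. The glucose transporter Slc2a1 gave 155, 227 and 247 on day 1 and 241, 250.4 and 168 on day 3, a change of 0.07 ± 0.42. The galactosyltransferase B4galt1, the partner of Lalba in lactose synthesis, gave 2155, 1440.0 and 1949 and then 2156, 1424 and 2568. Aldoc, an aldolase of glycolysis, had been called higher by 2.25 across birth and gave 2612, 3381 and 3868 and then 2264, 4456 and 4243. The days overlapped for all 3 genes. The median of 12 lactose and glucose genes was 0.00, with 6 above and 6 below 0 and 0 called.

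Among 20 measured milk transporters the median was 0.03 and 0 were called, 2 with an unadjusted p under 0.05. Atp2b2, the calcium pump that loads milk with calcium, gave 58.5, 123 and 127 on day 1 and 82.5, 195 and 196 on day 3. Mouse A was lowest on each day, and the change was 0.60 ± 0.28 (unadjusted p = 0.042, adjusted p = 1.00). The copper pump Atp7b gave 12.7, 17.9 and 15.5 and then 39.7, 35.2 and 20.5, a change of 1.01 ± 0.47 without overlap (adjusted p = 1.00). These signals are close to the floor of 9.4 under which all values were set to it. Slc34a2, the phosphate carrier, gave 1415, 2821 and 3456 and then 1694, 3405 and 3551, a change of 0.19 ± 0.50.

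The machinery that makes and exports protein gave no call either. Of 39 measured genes of translocation, folding and vesicle coats, 20 lay above and 19 below 0, with a median of 0.01. Spcs1, a subunit of the signal peptidase, gave 54.1, 95.2 and 60.9 on day 1 and 100.3, 114 and 147 on day 3. All day 3 mice were above all day 1 mice, and the change of 0.81 ± 0.25 had an unadjusted p of 0.0025 and an adjusted p of 0.56. The chaperone Hspa5 gave 1635, 949 and 1143 and then 1934, 1073 and 701, so the mice of a day differed more than the days. In amino acid synthesis and tRNA charging 17 of 20 genes lay above 0 with a median of 0.19 and 0 called, which became -0.01 without mouse A of day 3. For 24 ribosomal proteins the median was 0.01 and for 46 genes of the respiratory chain -0.02, with 0 called in each.

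Regulators of secretion that were measured gave no call. The gene of the prolactin receptor, Prlr, had no single-gene probe set and was not tested. Of 15 listed genes of prolactin, insulin and STAT5 signalling 12 were measured and 0 called. Their changes ran from -0.61 to 0.46, with a median of -0.02. Stat5a, the transcription factor under prolactin, gave 701, 513 and 672 on day 1 and 554, 590 and 630 on day 3 (-0.08 ± 0.17). Elf5, an alveolar transcription factor, gave 1746, 990.2 and 1939 and then 1557, 1337 and 1282 (-0.11 ± 0.29). Tnfsf11, the RANK ligand that progesterone induces, lay at or near the floor on both days, with 1.70, 11.3 and 10.2 and then 10.4, 10.4 and 6.80. It had been called lower by -1.79 across birth. Tph1, which makes serotonin, gave 23.8, 20.2 and 19.5 and then 18.1, 16.6 and 22.6. The clock genes Dbp and Per2 were under 30 in all 6 mice, and 0 of 13 clock genes were called.

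No cell type marker was called. The luminal keratins Krt8 and Krt18 had changes of -0.18 ± 0.32 and -0.03 ± 0.31. Krt8 signals were 893, 708 and 708 on day 1 and 785, 641 and 611 on day 3. For the myoepithelial actin Acta2 they were 1439, 412 and 804 and then 875, 788 and 669. The range within day 1 was wider than any distance between the days, and mouse B of day 1 was the lowest. Of 14 luminal and 10 basal markers 0 were called, with medians of -0.07 and -0.04. Luminal changes ran from -0.63 to 0.75, with 5 above and 9 below 0, and 1 marker was higher at an unadjusted p under 0.05. The days did not overlap for 2 luminal markers, both higher, against 3.23% of all features higher without overlap. Under 1 other setting, the floor at the 40th percentile, the luminal marker Spint2 was called. Whole glands were measured, so fewer cells of a type and less RNA per cell cannot be told apart in any of these values.

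White adipocyte markers had the lowest median of all 34 lists, -0.35, with 10 of 11 measured markers below 0, 0 called and 2 with an unadjusted p under 0.05. Adiponectin (Adipoq), a hormone of fat cells, gave 1588, 877 and 1383 on day 1 and 1490.4, 648 and 760.0 on day 3. Mouse A of day 3 lay among the day 1 mice, and the change of -0.46 ± 0.22 had an unadjusted p of 0.044 and an adjusted p of 1.00. Car3, a carbonic anhydrase abundant in fat, gave 1259, 515.5 and 1079 and then 1012, 429 and 403 (-0.67 ± 0.29, adjusted p = 0.90). Leptin (Lep) gave 161, 186 and 156 and then 162, 87.3 and 106, and its other probe set had the opposite sign, 0.34 ± 0.58. The summed signal of the list ran from 5419 to 8245 on day 1 and from 4871 to 7548 on day 3. With 1 mouse left out the list median ran from -0.69 (without mouse A of day 3) to -0.10 (without mouse C of day 3). Across birth 8 of the 11 markers had been called lower, with a median of -1.001, against 14.2% of all features called lower.

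Skeletal muscle markers had the highest median, 0.41, with 11 of 12 above 0 and 0 called or at an unadjusted p under 0.05. Creatine kinase (Ckm) gave 37.9, 32.2 and 24.2 on day 1 and 37.3, 45.5 and 56.5 on day 3. These groups overlapped, and the list median was 0.12 without mouse C of day 1. In the matrix list 16 of 20 genes lay below 0 with a median of -0.13 and 0 called. The collagen Col1a1 gave 1069.7, 789 and 1129 on day 1 and 1578, 798 and 644 on day 3, where mouse A was high. Without mouse A of day 3 that list had a median of -0.47, and without mouse B of day 3 it was 0.01. The brown adipocyte list was the only one of 34 whose per-mouse means did not overlap, 4.97 to 5.05 on the log2 scale on day 1 and 4.76 to 4.92 on day 3. It rests on 4 markers, 2 above and 2 below 0, with 0 called. Their summed signal overlapped, from 269 to 429 on day 1 and from 241 to 362 on day 3.

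No immune or blood marker was called. The macrophage receptor Adgre1 gave 30.0, 17.4 and 41.7 on day 1 and 62.1, 24.3 and 99.8 on day 3, a change of 0.93 ± 0.42 (unadjusted p = 0.032, adjusted p = 0.95). Aif1, another macrophage gene, went the other way, with 29.2, 37.7 and 15.8 and then 13.5, 11.5 and 8.10 (-1.19 ± 0.41, adjusted p = 0.62). Csf1r, the receptor of the macrophage growth factor, gave 147, 141 and 126 and then 83.8, 115 and 101.4, without overlap (-0.47 ± 0.25, unadjusted p = 0.068). For Aif1 and Csf1r all day 3 mice were below all day 1 mice. The day 3 signals of Aif1 were close to or under the floor, however. The other probe set of Csf1r had mean signals of 151 on day 1 and 149 on day 3, a change of -0.02 ± 0.37. Of the 15 macrophage and dendritic markers 3 did not overlap, all lower, 0 were called, and the median was -0.07. Over all features 3.06% were lower without overlap. The summed signal of the list ran from 3760.1 to 4606 on day 1 and from 3466 to 3943 on day 3. The T cell gene Cd3e stayed between 10.5 and 17.3 in all 6 mice. Alpha-globin (Hba-a1) gave 2662, 5388 and 3706 and then 2595, 4779 and 5218 (0.09 ± 0.35).

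Of 22 measured acute phase and defence genes, 7 had been called higher and 4 lower across birth, against 10.2% and 14.2% of all features. From day 1 to 3, 0 of the 22 were called, with a median of -0.12. Saa2, a serum amyloid, went from 213, 71.4 and 23.2 on pregnancy day 17.5 to 1355, 4161 and 5351 on day 1 and 3057, 2198 and 3901 on day 3. The day 3 mice lay inside the day 1 range, and the change was -0.07 ± 0.59. Serum amyloid genes are near-identical copies, so the probe set may read more than 1 of them. Lcn2, which binds bacterial siderophores, gave 3423, 4941 and 5412 and then 4516, 5339 and 3207. Its change was -0.08 ± 0.28, and its other probe set had the opposite sign, 0.18 ± 0.30. Among interferon-stimulated genes 13 of 20 lay below 0, with a median of -0.19 and 0 called. Psmb8, a subunit of the immunoproteasome, gave 473, 367 and 331 and then 413, 257 and 224 (-0.42 ± 0.19, unadjusted p = 0.034).

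Proliferation and growth lists gave no call. Mki67, a marker of dividing cells, gave 74.2, 70.4 and 157 on day 1 and 88.5, 95.4 and 110.2 on day 3, so the groups overlapped. The median of 33 genes of DNA replication and mitosis was 0.06. The list means per mouse on the log2 scale were 5.96, 5.74 and 6.14 on day 1 and 6.49, 5.41 and 5.93 on day 3. Mouse A of day 3 thus lay above all day 1 mice and mouse B of day 3 below them. Of the 33 genes, 6 were called lower from day 3 to 7. Over all features 1.59% were called lower in that later step. Of 18 ribosome biogenesis genes 13 lay below 0 with a median of -0.05. The member with the smallest unadjusted p of all lists was Rpl22, a ribosomal protein, with 56.4, 29.8 and 56.8 and then 45.5, 10.8 and 18.2 (-1.14 ± 0.30, adjusted p = 0.25). Mouse A of day 3 lay among the day 1 mice for this probe set. The other probe set of Rpl22 had a smaller change, -0.41 ± 0.37. Klf4, a transcription factor of the immediate early list, gave 44.6, 28.3 and 38.1 and then 31.8, 15.3 and 19.5 (-0.78 ± 0.30, unadjusted p = 0.012, overlapping).

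**Figure D4:**
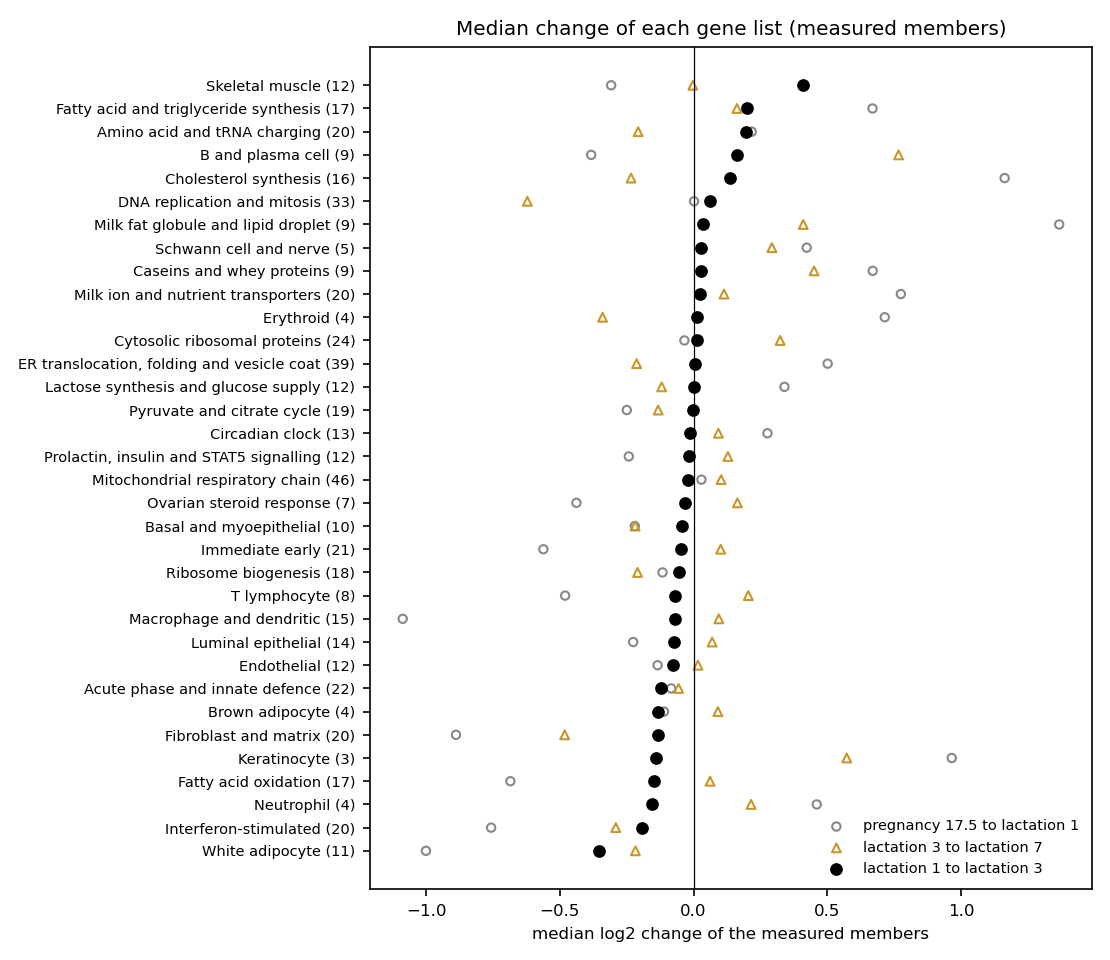
Median log2 change of the measured members (number in brackets) of 34 gene lists, for the step from lactation day 1 to 3 (black), the step before it (grey circles) and the step after it (triangles). The black medians lie between -0.35 (white adipocyte) and 0.41 (skeletal muscle).

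Over all lists together, 524 of 711 listed genes were measured, 0 were called by limma, and the lowest adjusted p was 0.25. At an unadjusted p under 0.05 there were 12 (2.29%), against 4.55% of all features. Their median log2 change was -0.01. In any setting tried, at most 1 member of a list was called.

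The brighter of the called features was a probe set that the annotation gives to several genes, so it has no gene name here. Its signals were 5272, 1773 and 6049 on day 1 and 1534, 1243 and 1765 on day 3. The days did not overlap, but mouse B of day 1 was next to the highest day 3 mouse, and mice A and C of day 1 stood far above it. The log2 change was -1.36 ± 0.26 (adjusted p = 0.037). It was not called without mouse A of day 1 (adjusted p = 0.22), without mouse C of day 1 (0.28), without mouse B of day 3 (0.14) or from the 6 arrays alone (1.00). Its signals were 4421, 3553 and 4740.1 on pregnancy day 17.5 and 2193, 1774 and 2013 on lactation day 7, at or above the day 3 level.

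The other called feature was Cnot8, a catalytic subunit of the CCR4-NOT complex that removes poly(A) tails. It gave 47.6, 40.1 and 30.5 on day 1 and 34.1, 10.5 and 5 on day 3. Mouse A of day 3 lay among the day 1 mice, and the log2 change was -1.37 ± 0.28 (adjusted p = 0.046). It lost its call in 8 settings, among them the higher floor, where the change was -0.57.

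The next features by p were dim as well and had an adjusted p of 0.071 or more. Scmh1, a Polycomb group protein, gave 52.8, 30.2 and 60.7 on day 1 and 12.2, 24.5 and 16.1 on day 3, without overlap (-1.44 ± 0.31, adjusted p = 0.071). Prss12, a secreted serine protease, gave 11.5, 32 and 13.6 and then 27.9, 66.7 and 60.3, with overlapping mice (1.496 ± 0.32, adjusted p = 0.071). Car12, a membrane carbonic anhydrase, gave 29.3, 53.7 and 83.8 and then 14.4, 7.80 and 23.1 (-1.80 ± 0.41, adjusted p = 0.11). Of the 19 other settings, Prss12 was called in 8, Scmh1 in 6 and Car12 in 5, and Cnot8 in 11. Scmh1 and Prss12 were each called under quantile normalization, for example (adjusted p = 0.025 for both).

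The test of the difference between steps asks whether a gene moved differently from day 1 to 3 than from day 3 to 7. It called 9 features (0.123%), 2 with the higher (0.0274%) and 7 with the lower (0.0957%) change in the first step, against 474 at an unadjusted p under 0.05 (6.48%). Without mouse A of day 3 it called 24, without mouse A of day 1 it called 20, and without mouse C of day 3 it called 16.

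For 3 of these genes the day 1 and day 3 mice overlapped and a rise came from day 3 to 7. They too were picked by the difference between the steps, so their unequal steps are not a separate result. Pip, a prolactin-induced secreted protein, gave 9.90, 27.7 and 46.9 on day 1 and 11.7, 27.8 and 34.8 on day 3, and then 347, 479 and 411 on day 7. The first step was -0.06 ± 0.42, the second 4.19 ± 0.42, and the difference -4.25 ± 0.72 (adjusted p = 0.00093). Across birth Pip had already been called higher by limma, by 1.32 (adjusted p = 0.017), from signals under the floor. Igha, the immunoglobulin A heavy chain of plasma cells, gave 429.6, 434 and 441 and then 358, 435 and 469, and 3418, 2493 and 4133 on day 7. Its difference between steps was -3.03 ± 0.62 (adjusted p = 0.014). Slc27a3, a member of the fatty acid transport protein family, had also been called higher across birth, by 0.74 (adjusted p = 0.011). Slc27a3 gave 18.0, 17.4 and 12.4 and then 12.8, 18.9 and 19.5, and 62.2, 108.5 and 90.5 on day 7.

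Jchain, which joins immunoglobulin A into dimers, had values like these, with 86.8, 103 and 90 and then 88.8, 118 and 122, and 345, 257 and 443 on day 7. Its rise from day 3 to 7 was called (1.65 ± 0.39, adjusted p = 0.011), but the difference between its steps was not (-1.43 ± 0.68, adjusted p = 0.73). From day 3 to 7, 1.33% of all features were called higher. Of the 9 measured B and plasma cell markers, 0 were called from day 1 to 3 and 3 were called higher from day 3 to 7. The summed signal of those markers ran from 842 to 1068 on day 1, from 882 to 1175 on day 3 and from 3250 to 5099 on day 7. The other probe sets of Igha were near or at the floor on days 1 and 3, and heavy chain genes share sequence.

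The other 6 genes had their lowest or highest mean of the 3 lactation days on day 3, and for 4 of them the mice of days 1 and 3 overlapped. The day 3 mice enter both steps with opposite sign, so a chance deviation of day 3 also gives such a mean. These genes were picked by the difference between the steps, so their low or high day 3 is not a separate result. Cnot8, Scmh1, Grik2 and Ssbp2 had their lowest means on day 3. Grik2, a kainate receptor subunit, gave 22.2, 14.0 and 22.7, then 13.5, 10.2 and 7.30, and then 32, 42.4 and 51.8. Ssbp2, a transcriptional cofactor that binds single-stranded DNA, gave 68.8, 58.0 and 71.8, then 58.7, 30.0 and 28.6, and then 88.3, 73.8 and 57.4. Fgfbp1, a carrier of fibroblast growth factors, was higher on day 3 (86.9, 26.5 and 62.9) than on day 7 (7.80, 4.40 and 8.80), and on day 1 it varied from 3.60 to 67.2. Vmn2r89, from a large family of similar pheromone receptor genes, gave 18.9, 30.6 and 3.70, then 27.0, 41.5 and 49.8, and then 22.7, 5.50 and 17. The signals of these 6 genes were under 100 in all mice of the 3 lactation days.

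**Figure D5:**
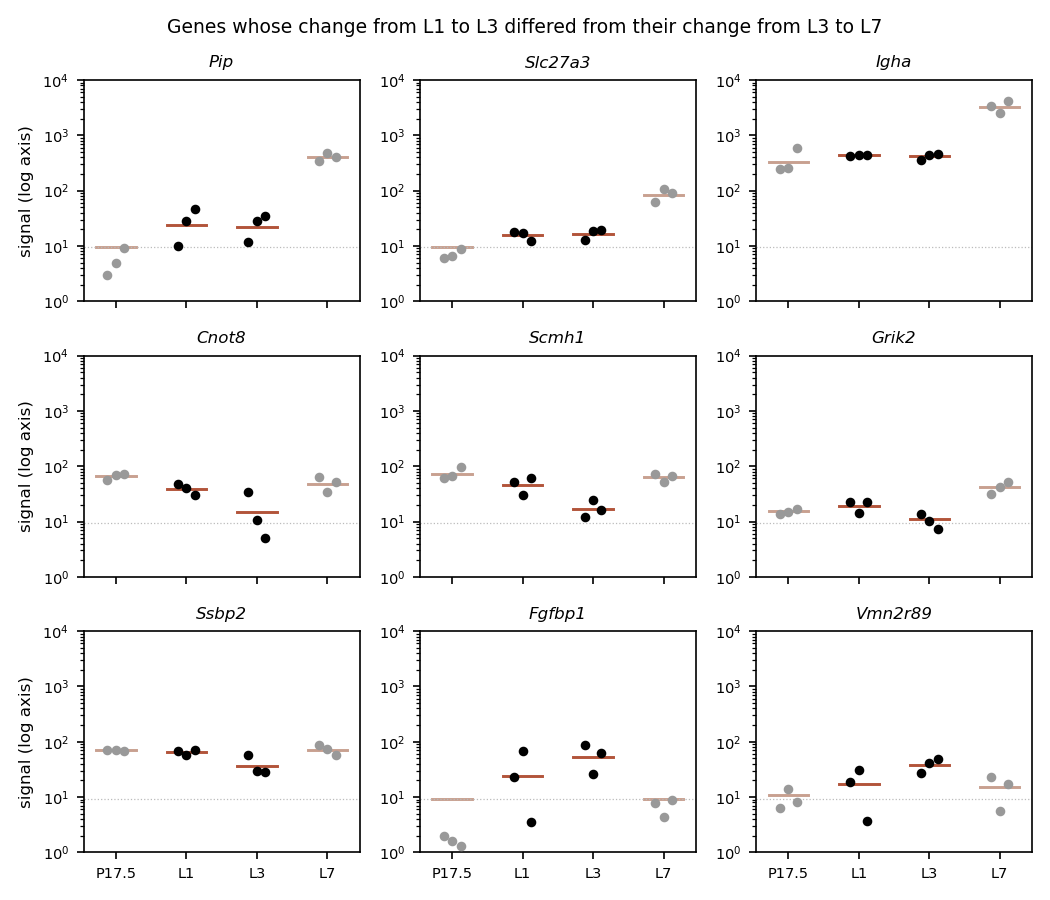
Signal of each mouse (points, log axis, the same scale in all panels) for the 9 genes whose change from lactation day 1 to 3 (black) differed from the change from day 3 to 7. Bars are means of log2 after the floor, and the dotted line is the floor of 9.4. Pip, Slc27a3 and Igha are level over the black groups and higher on day 7, and the other 6 are dim.

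Against the step across birth, the difference was called for 147 features (2.01%), 93 with the higher (1.27%) and 54 with the lower (0.739%) change from day 1 to 3. Across birth the 93 had a log2 change below 0 and the 54 one above 0. Their median size of change was 1.76 across birth and 0.23 from day 1 to 3, and 0 of them were called in the latter. These features were picked by the difference between the steps, so their unequal sizes are not a separate result. The day 1 mice enter both steps with opposite sign, so a chance deviation of day 1 also gives opposite signs. Leaving out 1 mouse moved this count from 25 (without mouse B of day 1) to 254 (without mouse A of day 1). It was 59 without mouse C of day 1 and 68 without mouse A of day 3.

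Among the risers across birth, Cidea had a change of 4.73 ± 0.32 in the first step and 0.08 ± 0.32 in the next. The difference was -4.64 ± 0.55 (adjusted p = 8.4e-07). Csn1s2b had 4.62 and 0.42, Slc34a2 had 4.44 and 0.19, and Saa2 had 5.46 and -0.07. Among those that fell, Phlda1, a pleckstrin homology domain protein, gave 563, 740.3 and 1134 on pregnancy day 17.5. It gave 91.1, 26 and 43.6 on day 1 and 67.1, 63.7 and 62.2 on day 3 (-4.05 ± 0.36 and then 0.45 ± 0.36). Rspo1, a Wnt pathway agonist that ovarian hormones induce in the gland, gave 121, 203 and 185 and was mostly under the floor on both lactation days. Kit, a receptor of luminal progenitor cells, gave 188, 108 and 175 and then 46.2, 11.4 and 6.80 on day 1 and 31.7, 21.9 and 8.60 on day 3. For these genes the day 1 and day 3 mice overlapped.

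As whole profiles the 6 arrays did not sort by day. Pairs of the same day correlated across features at r from 0.930 to 0.949 (median 0.938, 6 pairs), and pairs of different days from 0.931 to 0.959 (median 0.947, 9 pairs). Only 1 of the 6 arrays had its nearest neighbour on its own day, and the closest pair was mouse A of day 1 with mouse A of day 3. The arrays had median signals of 37.2 to 39.6, with 21.2% to 24.2% of probe sets under the floor. The 3' to 5' signal ratio of beta-actin, a measure of RNA integrity, was 1.43 to 1.77 on day 1 and 1.43 to 1.60 on day 3. It was 1.74 to 2.61 on pregnancy day 17.5 and 1.58 to 2.14 on lactation day 7. The same ratio of Gapdh was 0.92 to 1.11 over days 1 and 3, 0.98 to 3.11 on pregnancy day 17.5 and 1.15 to 1.67 on day 7. With the beta-actin ratio as covariate 1627 features were called across birth and 314 from day 3 to 7. The cause of the larger neighbouring counts was not tested.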

How the data were processed

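RNA of 54 mouse mammary glands was measured on 1-channel arrays with 12488 probe sets. The deposited values are signal intensities that the authors computed with MAS5, per the submitters' processing notes, with the version not given in the sources used here. A floor of 9.4, the 25th percentile over the whole table, replaced lower signals before log2. Control probe sets (66) were dropped. Of the other 12422, those above 22.8 (40th percentile) in all 3 arrays of a time point were kept (8640), and the brightest probe set stood for a gene, giving 7311 features. Symbols came from the platform annotation, where 10833 probe sets had 1, 396 several and 1193 none.

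All 54 arrays were fitted with limma 3.58.1 under R 4.3.3, giving each time point its own mean and letting the prior variance follow intensity. Residual degrees of freedom were 36, and prior ones 6.77. Tests were two-sided, and p was adjusted by Benjamini-Hochberg over 7311 features. The pipeline was tested on simulated data. Tables used Python 3.11.15, pandas 2.3.3 and numpy 2.4.6, and figures matplotlib 3.10.9.

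The comparison, lists and fixed genes were chosen with earlier results of these data known. Named genes were to be called features with 1 symbol and no overlap (10 per direction), up to 5 called members of lists with at least 3 calls, and 44 fixed genes, of which 40 were measured. The first part named 0 genes and the second 0 lists, so all other genes were named after their values were seen.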

Additional observations from a re-analysis of the deposited data

How the results depend on the processing

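Alternatives changed the floor (none, or the 40th percentile), the scaling (quantile or median), the filter, the collapsing, the arrays fitted (the 6 alone, which gives no value for results that need other days), the trend, the array weights, a replicate block by letter and the beta-actin ratio as covariate, and each mouse was left out. Arl2bp and Glo1 covariates, and all 12422 probe sets without filter or collapsing, were chosen after seeing the data. The count of 2 features became 4 with no floor, quantile normalization, median scaling or array weights, 22 with the higher floor (17 higher, 5 lower), 24 without the filter (13 and 11), 32 with all probe sets (18 and 14), 1 without collapsing and 0 from the 6 arrays alone. It ranged from 2 to 20 without 1 mouse. Of the 32 calls 27 failed the filter, with no signal above 61.7 in the 6 arrays. The labels link no letters; same-letter deviations correlated at 0.31 (A), 0.16 (B) and 0.06 (C), so not every pair passed the 0.1 required for pairing, although 5 of 6 arrays correlated best with their own letter, a hint from the data. With the replicate block 1 feature was called. The 9 differences from the step between days 3 and 7 became 26 with the higher floor (12 and 14), 51 without the filter (23 and 28), 69 with all probe sets (32 and 37) and 16 with array weights, and 6 to 10 under the others; the range without 1 mouse was 11 to 24. The 147 differences from the step across birth became 47 with array weights and 25 to 254 without 1 mouse. The 1783 calls across birth were 954 to 1828 without 1 mouse, the lowest without mouse B of day 1. The 213 calls from day 3 to 7 became 334 without the filter, 428 with all probe sets and 107 to 228 without 1 mouse, the lowest without mouse A of day 3. The causes were not tested. For 100 named features, 1899 values were recomputed: 12 lost and 34 gained a call, 8 moved, no called one changed sign, and 128 uncalled ones did. Signals near the floor limit the dim features, and 3 mice a day limit all of them.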

Other observations

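Arl2bp, which codes for a binding protein of the small GTPase Arl2, split the mice within each day. It gave 92.0, 480.4 and 82.2 on day 1 and 68.3, 99.4 and 424.5 on day 3, so mouse B of day 1 and mouse C of day 3 stood far above the other 4. Glo1, a glyoxalase, was lowest in the same mice, with 284, 145 and 304 on day 1 and 268, 302 and 161 on day 3. On pregnancy day 17.5 mice A and C had the high Arl2bp signals (521 and 595 against 77.0) and the lower Glo1 signals (206 and 149.6 against 408). On lactation day 7 Arl2bp was between 79.5 and 84.6 in all 3 mice. Another probe set of Glo1 had a change of -0.17 ± 0.33 from day 1 to 3, opposite in sign to the 0.02 ± 0.30 of the one given here. With both signals as covariates 3 features were called between the days.

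For 3 genes with small unadjusted p the signals of days 3 and 7 are set beside those of day 1. Dlk1, a Notch-like membrane protein that restrains fat cell differentiation, gave 44.3, 37.5 and 38.5 on day 1, 17.6, 28.4 and 10.1 on day 3 and 14.0, 11.0 and 13.5 on day 7. Nudt21, a subunit of a pre-mRNA cleavage factor, gave 83.1, 38.1 and 68.6, then 26.9, 29.7 and 27.5, and then 37.2, 31.3 and 40.8. Wdr5, a core subunit of histone methyltransferase complexes, was the brighter one, with 196, 177 and 136, then 228, 419 and 343, and then 324, 351 and 353. The days 1 and 3 did not overlap for these 3 genes, and their adjusted p values by limma were 0.23, 0.23 and 0.44. The growth factor midkine (Mdk) gave 99.9, 48.3 and 70.6, then 35.2, 20.6 and 62.9, and then 20.0, 20.9 and 24.7. Its log2 change was -0.97 ± 0.31 from day 1 to 3 (adjusted p = 0.57) and -0.71 ± 0.31 from day 3 to 7 (adjusted p = 0.24).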
